A study of Mus musculus with 14 samples.

Results

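Transcripts of 9 genes that mark the oligodendrocyte lineage or astrocytes were followed in GFP-positive cells that had been sorted from the embryonic mouse cortex. The oligodendrocyte genes were Olig1, Olig2, Sox10, Pdgfra and Mbp, and the astrocyte genes were Aldh1l1, Aqp4, Gfap and S100b. The members were all probe sets paired with exactly 1 of these symbols in the platform annotation, 26 of 45037 probe sets in the value table for 9 of 18193 genes. CD1 embryos received a plasmid by in utero electroporation at E14.5, in which DNA is injected into the lateral ventricle and driven into the cells lining it by electric pulses. Cells were taken 24 h or 48 h later, with 3 CtrlGFP and 3 Fezf2GFP samples at the first time and 4 of each at the second. The vector carried GFP alone (CtrlGFP) or with Fezf2 (Fezf2GFP), which encodes a zinc finger factor that sets the fate of deep-layer cortical neurons. All 14 samples therefore went through surgery, electroporation, dissociation and sorting for GFP, and no unoperated cortex was analysed here. The labels do not tie the samples of a group to different litters, so each p-value reflects only how far these samples spread, and that spread may be technical.

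Radial glia, the stem cells of the embryonic cortex, make neurons first and glia later. Olig1 and Olig2 are basic helix-loop-helix transcription factors that set the oligodendrocyte fate, and Olig2 also marks progenitors of the ventral forebrain that give rise to interneurons. Sox10 acts with them in the oligodendrocyte lineage, and Pdgfra is the receptor through which platelet-derived growth factor expands oligodendrocyte progenitors. Mbp encodes myelin basic protein, a component of myelin. Among the astrocyte genes, Aldh1l1 encodes a folate enzyme that radial glia also make, Aqp4 the water channel of astrocyte endfeet, Gfap an intermediate filament and S100b a calcium-binding protein. Myelin and mature astrocytes form after birth in the mouse cortex.

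Olig1 and Olig2 lie on mouse chromosome 16 with 1 annotated gene between them, which does not code for protein. RefSeq promoters were at hand for 5 of the 9 genes. The bases before the start of Olig2, which passed between times, and of Aldh1l1, which passed between vectors, are shown. These were the tested members with a promoter at hand. None was at hand for Olig1, whose change between times held as widely. Both run 5′ to 3′ on the plus strand, over the 250 bases before the RefSeq start (build GRCm38.p6, chr16:91225300-91225549 and chr6:90550543-90550792), and capitals mark the E-box CANNTG, the motif class that helix-loop-helix factors bind and that reads the same on both strands.
Olig2: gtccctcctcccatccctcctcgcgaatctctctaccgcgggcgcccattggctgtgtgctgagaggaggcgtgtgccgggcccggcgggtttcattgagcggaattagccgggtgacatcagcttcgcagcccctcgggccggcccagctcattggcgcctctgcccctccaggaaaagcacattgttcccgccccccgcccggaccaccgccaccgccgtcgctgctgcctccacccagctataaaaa
Aldh1l1: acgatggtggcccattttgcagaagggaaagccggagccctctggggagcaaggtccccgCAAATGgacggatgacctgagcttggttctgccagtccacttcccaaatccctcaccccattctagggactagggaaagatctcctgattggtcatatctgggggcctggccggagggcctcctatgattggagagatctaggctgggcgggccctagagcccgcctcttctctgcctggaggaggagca
The Aldh1l1 window held 1 E-box, CAAATG, which began 190 bases before the start. The Olig2 window held 0. At least 1 E-box was found in 66.2% of the 32851 promoter windows of this length, so 1 match is common, and a match or its absence is a description of these letters.

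Within groups, Pearson's r between arrays was 0.942 to 0.993 over genes. The median log2 value per array ran from 3.26 upward and was highest in CtrlGFP 24 h replicate 1, followed by CtrlGFP 48 h replicate 2 at 3.45. The vector's own gene went against the labels. Fezf2, measured by 1 probe set, stood at 11.30 ± 0.42 in CtrlGFP and 9.44 ± 0.11 in Fezf2GFP at 24 h (SD, n = 3 each), and at 10.15 ± 0.48 and 9.33 ± 0.70 at 48 h (SD, n = 4 each). The sources used here do not place this probe set inside or outside the insert of the vector, so it may check nothing. Fezf2GFP below means the libraries labelled so, and each direction between vectors depends on that label.

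Most of the glial probe sets were dim on every array. A probe set is called dim at a log2 level of 4 or below. Of the 26 member probe sets, 18 were dim on all 14 arrays, 8 exceeded the level on at least 1 array and 7 on at least 3. Gfap and S100b were dim with every probe set, at no more than 3.14 and 2.86. Sox10 was dim with all 3 of its probe sets, and its highest value, 3.04, came from CtrlGFP 48 h replicate 2, while that probe set stayed at or below 2.03 on the other 13 arrays. With the probe set of highest mean taken for each gene, 5 of the 9 genes exceeded the level on at least 3 arrays and were tested, namely Olig1, Olig2, Mbp, Aldh1l1 and Aqp4. The label of glial genes describes what the genes mark in the mature brain. In these samples the defining markers of mature astrocytes (Gfap, S100b) and of committed oligodendrocyte cells (Sox10) were at the dim end of the scale.

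**Figure D1:**
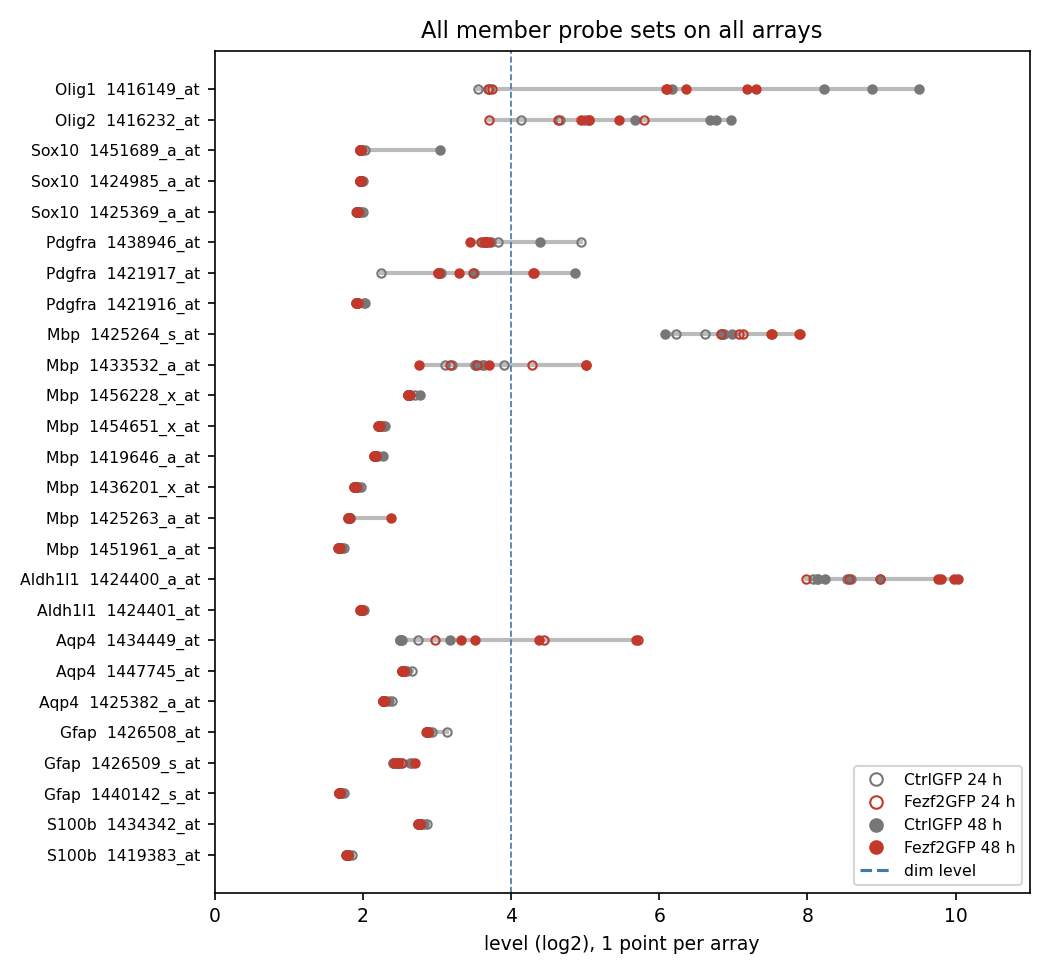
Level (log2, horizontal axis) of each of the 26 member probe sets on each of the 14 arrays, with open points for 24 h, filled points for 48 h, grey for CtrlGFP and red for Fezf2GFP. Grey bars join the lowest and highest array, and 18 probe sets lie wholly left of the dashed dim level of 4.

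Olig1 and Olig2 rose between 24 h and 48 h in control cells. Olig1 read 3.56, 3.70 and 3.71 in CtrlGFP replicates 1 to 3 at 24 h, and 9.50, 8.23, 6.18 and 8.88 in replicates 1 to 4 at 48 h. All 3 early arrays were dim and all 4 later ones were not, with replicate 3 the lowest of these. The level of Olig1 was at least 18.3-fold higher at 48 h (fitted log2 fold change 4.54, SE 0.72, limma adjusted p = 0.00123). "At least" means that the dim group was set to the dim level. Olig2 stood at 5.0, 4.14 and 4.66 in the controls at 24 h and at 6.77, 6.97, 5.67 and 6.68 at 48 h. These groups did not overlap either, as for 9.93% of all genes tested in the upward direction, and replicate 3 was again the lowest at 48 h. The log2 fold change of Olig2 was 1.93 (SE 0.43, limma adjusted p = 0.00911), a level 3.80-fold higher. Both rises passed in all 25 alternative fits, with log2 fold changes from 4.10 to 5.21 for Olig1 and from 1.69 to 2.21 for Olig2. Of the 9 genes, these 2 of 5 tested passed in this comparison, both higher, where 12.6% of all 10295 genes tested passed and 5.88% passed upward.

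With the Fezf2 vector both genes read lower than in controls at 48 h, and neither difference passed. Olig1 read 7.18, 7.30, 6.10 and 6.36 in Fezf2GFP replicates 1 to 4 at 48 h, so replicate 3 lay just below the lowest control array and the others inside the range of the controls. Against CtrlGFP the log2 fold change of Olig1 was -1.46 (SE 0.66, 95% interval -2.89 to -0.03, limma adjusted p = 0.316). It was -1.02 without CtrlGFP 48 h replicate 1 and -2.13 without replicate 3 of that group (adjusted p = 0.526 and 0.0683). Olig2 read 4.95, 5.45, 5.06 and 5.05 in the same arrays, all below the lowest control array. Its log2 fold change was -1.40 (SE 0.39, 95% interval -2.25 to -0.54, limma adjusted p = 0.0799), so the threshold was missed although the groups stood apart, which 1.72% of all genes did in the downward direction. Over 25 alternative fits this adjusted p ranged from 0.0301 to 0.213 and passed in 3. These left out CtrlGFP 48 h replicate 3 (adjusted p = 0.0469), or the first (0.0301) or second (0.0438) Fezf2GFP array at 24 h.

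At 24 h the Fezf2GFP arrays were uneven for Olig1 and Olig2. Olig1 read 6.09 in replicate 1, against 3.75 and 3.69 in replicates 2 and 3, and Olig2 read 5.80, 3.70 and 4.63 in the same order. Replicate 1 lay above all control arrays of that time for both genes, and replicate 2 lay below them for Olig2. The fold changes against CtrlGFP at 24 h did not pass (Olig1 0.86, SE 0.76, limma adjusted p = 0.743; Olig2 0.11, SE 0.45, adjusted p = 0.946). Within Fezf2GFP, the change from 24 h to 48 h was 2.23 for Olig1 (SE 0.72, adjusted p = 0.0629) and 0.42 for Olig2 (SE 0.43, adjusted p = 0.628), and neither passed. Without Fezf2GFP 24 h replicate 1 the first value was 3.02 and passed (adjusted p = 0.0166), and without replicate 2 it was 1.84 (adjusted p = 0.238). It also passed without CtrlGFP 48 h replicate 3 (adjusted p = 0.0199), which changes only the spread. The rises over time in the 2 vectors were set against each other by the interaction of vector and time, which was -2.31 for Olig1 (SE 1.01, unadjusted p = 0.0396, limma adjusted p = 0.989) and -1.51 for Olig2 (SE 0.60, unadjusted p = 0.0263, adjusted p = 0.960). The time course in controls and the vector comparison at 48 h share the CtrlGFP 48 h arrays, so their values for Olig1 (4.54 and -1.46) and Olig2 (1.93 and -1.40) are not separate measurements.

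**Figure D2:**
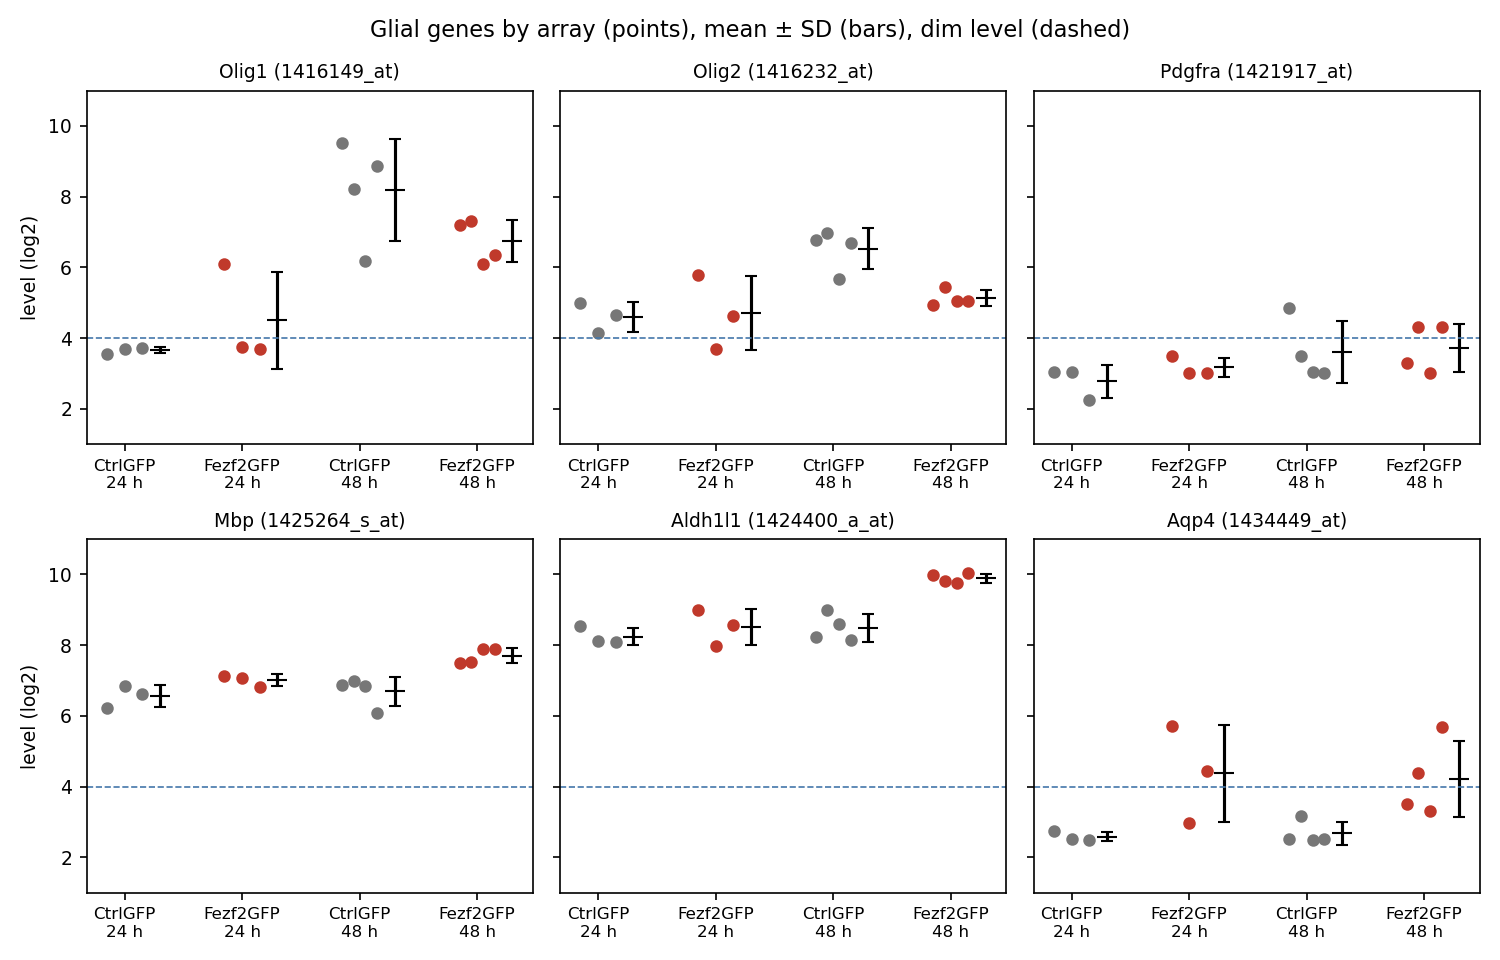
Level (log2, vertical axis) of 6 glial genes by group, with 1 point per array and the mean ± SD beside it (n = 3 at 24 h, n = 4 at 48 h); the dashed line is the dim level of 4. Olig1 and Olig2 are highest in CtrlGFP at 48 h, while Mbp and Aldh1l1 are highest in Fezf2GFP at 48 h.

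No other gene of the oligodendrocyte lineage that was tested passed as higher with time in controls. Pdgfra was read by 3 probe sets. The one with the highest mean exceeded the dim level on 2 arrays, CtrlGFP 24 h replicate 1 (4.95) and CtrlGFP 48 h replicate 2 (4.39), which are the 2 arrays with the highest medians, and was not tested. A second Pdgfra probe set exceeded it on 3 arrays, at 4.86 in CtrlGFP 48 h replicate 1 and at 4.31 and 4.30 in Fezf2GFP 48 h replicates 2 and 4. In a fit over 17407 probe sets its log2 fold change was 0.83 from 24 h to 48 h in controls (SE 0.45, limma adjusted p = 0.333) and 0.12 for Fezf2GFP at 48 h (SE 0.42, adjusted p = 0.940).

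Among further oligodendrocyte progenitor genes, 8 of the 12 read here were dim on all arrays, among them Cspg4, which encodes the NG2 proteoglycan, the homeobox factor Nkx2-2 and the receptor Gpr17. Of the 3 that were tested, 0 passed for either vector comparison, where 1.06% of all genes tested passed at 24 h and 3.13% at 48 h. With time in controls 1 of the 3 fell, where 6.69% of all genes tested fell. This was Myt1, a zinc finger factor of the neural lineage, which fell by 1.04 on the log2 scale (SE 0.20, limma adjusted p = 0.00474). Tnr, which encodes the matrix protein tenascin-R, stood at a fitted 2.11 in the same comparison (adjusted p = 0.151, named after its values were seen), with 0 of 3 arrays above the dim level at 24 h and 2 of 4 at 48 h. In the PDGF family, 4 of 6 genes were tested. Pdgfa, a ligand of Pdgfra, rose with time in controls by 0.88 (SE 0.26, limma adjusted p = 0.0403), 1 of 4 where 5.88% of all genes rose. For the vector comparisons 0 of 4 passed at either time, where 1.06% and 3.13% of all genes did. Of the relatives of Olig1, Olig2 and Sox10, Olig3 and Bhlhe23 were dim on all arrays and Sox9, a factor of radial glia and glial progenitors, was the 1 tested. Sox9 fell with time in controls by 1.69 on the log2 scale (SE 0.50, limma adjusted p = 0.0416).

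Mbp was higher with the Fezf2 vector at 48 h through 1 of its 8 probe sets. That probe set read 6.87, 6.98, 6.84 and 6.08 in CtrlGFP replicates 1 to 4 at 48 h and 7.51, 7.52, 7.88 and 7.90 in Fezf2GFP. All Fezf2GFP arrays lay above all controls, as for 7.35% of all genes tested at that time. The log2 fold change of Mbp was 1.01 (SE 0.21, limma adjusted p = 0.0221), a level 2.01-fold higher. At 24 h the values were 6.23, 6.86 and 6.62 in CtrlGFP and 7.13, 7.08 and 6.83 in Fezf2GFP, a difference of 0.45 (SE 0.25, adjusted p = 0.674) that did not pass. Over time Mbp changed by 0.13 in controls (SE 0.23, adjusted p = 0.824) and by 0.69 in Fezf2GFP (SE 0.23, adjusted p = 0.0725), and neither passed.

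The Mbp call was not shared by its other probe sets. A second probe set exceeded the dim level on 3 arrays, Fezf2GFP 24 h replicate 1 (4.28) and Fezf2GFP 48 h replicates 1 and 4 (5.02 each), and read 2.76 in Fezf2GFP 48 h replicate 2. Its log2 fold change at 48 h was 0.56 (SE 0.44, limma adjusted p = 0.666 over all probe sets). The other 6 were dim on all arrays, at no more than 2.77. The probe set that passed carries the suffix that Affymetrix gives to sets whose probes match more than 1 transcript. What share of its signal is from Mbp, or from Mbp transcripts that code for the myelin protein, was not tested. Its difference is therefore not read as a sign of myelin or of oligodendrocytes. Its call also ended without Fezf2GFP 48 h replicate 3 (adjusted p = 0.0602) or replicate 4 (0.0698), with only the arrays of the groups compared (0.0801), and with the second probe set taken for the gene (0.661). Of the other myelin genes, 9 of 12 read here were dim on all arrays, among them Mag, Mobp and Opalin. Of the 2 tested, 0 passed in any of the 5 comparisons, where 0.0971% to 12.6% of all genes tested passed. With 2 genes this count says little. Cnp, an enzyme of oligodendrocytes, stood at 0.60 for Fezf2GFP at 48 h (adjusted p = 0.370), and Ugt8a, which makes the galactolipid of myelin, at 0.13 (adjusted p = 0.901), with 3 of 14 arrays above the dim level.

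Aldh1l1 rose with the Fezf2 vector at 48 h. The controls read 8.23, 8.98, 8.59 and 8.14 in replicates 1 to 4 and the Fezf2GFP arrays 9.98, 9.80, 9.76 and 10.03. The Fezf2GFP arrays lay close together, all above the highest control. The log2 fold change of Aldh1l1 was 1.41 (SE 0.23, limma adjusted p = 0.00507), a level 2.65-fold higher, and it passed in all 25 alternative fits, between 1.29 and 1.57. At 24 h Aldh1l1 read 8.53, 8.12 and 8.08 in CtrlGFP and 8.98, 7.98 and 8.56 in Fezf2GFP. These groups overlapped, and the difference of 0.27 did not pass (SE 0.27, adjusted p = 0.760). From 24 h to 48 h Aldh1l1 rose by 1.38 in Fezf2GFP (SE 0.25, limma adjusted p = 0.00351), in all 25 alternative fits. The control value was 0.24 (SE 0.25, 95% interval -0.30 to 0.78, adjusted p = 0.651). The rise in Fezf2GFP and the vector difference at 48 h share the Fezf2GFP 48 h arrays. Their values (1.38 and 1.41) are therefore not separate measurements. The interaction was 1.14 (SE 0.35, unadjusted p = 0.00677) and did not pass across all genes (limma adjusted p = 0.632), so a difference between the 2 time courses was not called. A second Aldh1l1 probe set read between 1.96 and 2.01 on all arrays and gave no measurable level.

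Aqp4 was the other astrocyte gene above the dim level, and on Fezf2GFP arrays alone. One of its 3 probe sets read 5.72, 2.98 and 4.44 in Fezf2GFP replicates 1 to 3 at 24 h, and 3.51, 4.38, 3.32 and 5.68 in replicates 1 to 4 at 48 h. All 7 control arrays were dim, between 2.50 and 3.18. Values below the dim level have no order, so Fezf2GFP replicate 2 at 24 h and replicates 1 and 3 at 48 h cannot be set above the controls. Neither fitted log2 difference passed, at 1.79 for 24 h (SE 0.64, limma adjusted p = 0.335) and 1.55 for 48 h (SE 0.55, adjusted p = 0.178), and their sizes are uncertain. With the controls set to the dim level and the Fezf2GFP readings taken as they stand, the level was 1.30-fold higher at 24 h and 1.17-fold higher at 48 h. Some Fezf2GFP readings were dim too, so these folds are no firm limits. They also rest on single arrays. Without Fezf2GFP 24 h replicate 1, or without Fezf2GFP 48 h replicate 4, the remaining arrays averaged below the dim level and gave no fold. Without Fezf2GFP 24 h replicate 2 the first was 2.11-fold. Only 4 of 14 arrays exceeded the dim level for Aqp4, 2 at each time. Its change with time passed in neither vector, with log2 fold changes of 0.09 in controls (SE 0.60, adjusted p = 0.962) and -0.15 in Fezf2GFP (SE 0.60, adjusted p = 0.926).

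For Fezf2GFP against CtrlGFP, 0 of the 5 tested genes passed at 24 h, where 1.06% of all genes tested did, and 2 of 5 passed at 48 h, Aldh1l1 and Mbp, both higher, where 3.13% did and 2.7% did so upward. At 24 h limma's unadjusted p was under 0.05 for 1 of the 5, Aqp4 (0.0149), and for 8.85% of all genes. The 5 are the members that exceeded the dim level, so these counts say nothing of the other 4 genes. Aqp4 was tested through its Fezf2GFP arrays alone. The filter thus favoured a higher value there, and its unadjusted p is no support for a difference. Between times, 1 of 5 passed in Fezf2GFP (Aldh1l1, higher), where 12.1% of all genes did and 6.38% did so upward. For the interaction 0 of 5 passed, where 0.0971% of all genes did, and the unadjusted p was under 0.05 for 3 of 5 (Aldh1l1, Olig1 and Olig2) and for 4.94% of all genes.

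**Figure D3:**
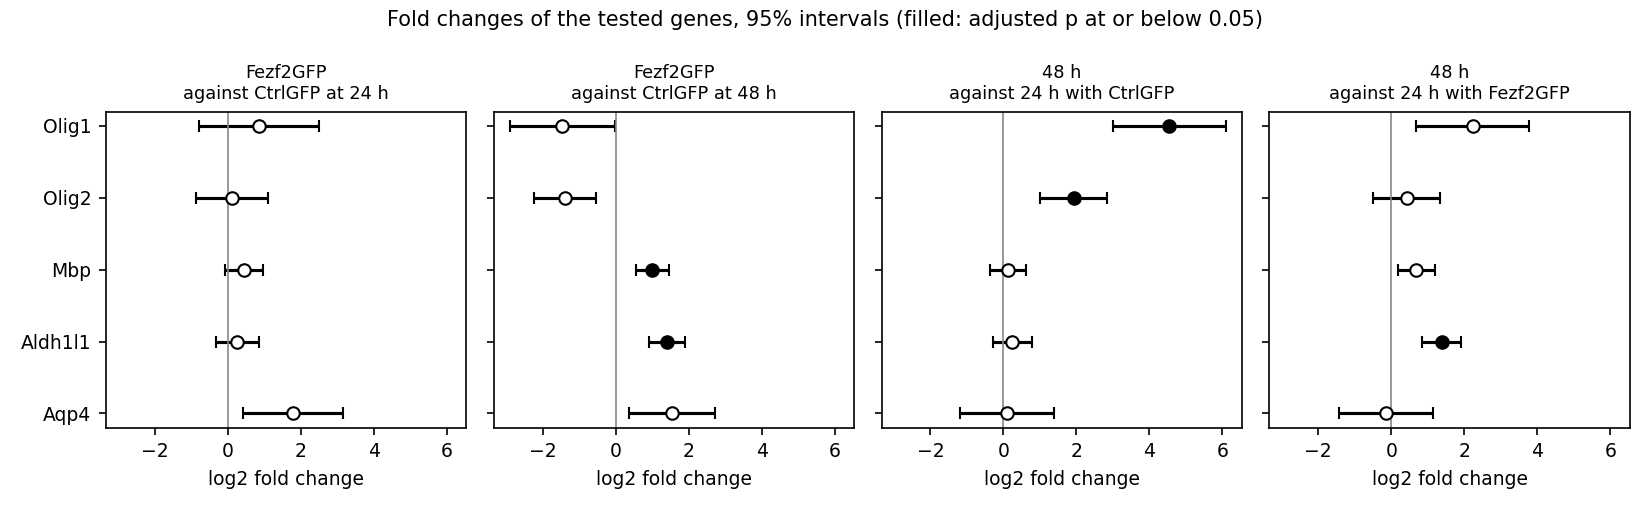
Log2 fold change (horizontal axis, with limma's 95% interval) of the 5 tested genes in 4 comparisons; filled points had a limma adjusted p at or below 0.05. Olig1 and Olig2 are right of 0 for 48 h against 24 h in controls and left of 0 for Fezf2GFP at 48 h, while Mbp, Aldh1l1 and Aqp4 are right of 0 for Fezf2GFP at both times.

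Of 20 further astrocyte genes 16 were tested, and Gjb6, Agt, Ntsr2 and Cd44 were dim on all arrays. For Fezf2GFP at 48 h 1 of 16 passed, Aldoc, a glycolytic enzyme, higher by 0.74 (SE 0.18, limma adjusted p = 0.0422, named after its values were seen), where 2.7% of all genes passed upward. The list's median was 0.74, beside 0.06 for all genes tested. At 24 h 0 of 16 passed, where 1.06% of all genes tested did, and the list's median was 0.29, beside 0.06 for all genes. Kcnj10, a potassium channel of astrocytes, and Gja1, a gap junction protein of radial glia and astrocytes, stood at 0.80 (adjusted p = 0.0569) and 0.74 (adjusted p = 0.0768) for Fezf2GFP at 48 h.

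Over time in controls, where Olig1 and Olig2 rose, 6 of the 16 astrocyte genes fell and 1 rose. Their median was -0.63 beside -0.02 for all genes, of which 6.69% fell. Gja1 fell by 1.74 on the log2 scale (SE 0.22, limma adjusted p = 0.000376), the growth factor receptor Fgfr3 fell by 2.14 (SE 0.44, adjusted p = 0.00619) and Kcnj10 fell by 1.24 (SE 0.22, adjusted p = 0.00294). Aldoc, Mlc1 and the glutamate transporter gene Slc1a3 also fell, and Sparcl1, a secreted glycoprotein, rose by 1.93 (adjusted p = 0.0399); these 4 were named after their values were seen. In Fezf2GFP 3 of 16 fell, where 5.67% of all genes did: Gja1 fell by 1.70 (adjusted p = 0.000551), Fgfr3 fell by 1.83 (adjusted p = 0.0163) and so did, named after its values were seen, the urea transporter gene Slc14a1, which exceeded the dim level on 1 of 4 arrays at 48 h. Aldh1l1 therefore rose with time in Fezf2GFP while Gja1 and Fgfr3 fell in the same arrays.

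Among factors that steer progenitors toward glia, 1 passed between vectors. Stat3, which carries cytokine signals that start astrocyte formation, rose in Fezf2GFP by 2.34 at 24 h (SE 0.42, limma adjusted p = 0.0142) and by 1.75 at 48 h (SE 0.36, adjusted p = 0.0198; fitted log2 differences), 1 of 10 tested at each time, where 0.806% and 2.7% of all genes passed upward. Stat3 exceeded the dim level on 2 of 3 CtrlGFP arrays at 24 h and on 1 of 4 at 48 h, and on all 7 Fezf2GFP arrays, so the sizes of these differences are uncertain. The list's medians were 0.32 and 0.50, beside 0.06 for all genes tested at each time. The nuclear factors Nfia, Nfib and Nfix, which act in gliogenesis, stood at 0.70, 0.28 and 0.17 at 48 h, and none of the 3 passed (named after their values were seen). Over time Sox9 was the 1 of 10 to fall in controls, where 6.69% of all genes tested fell. Over the same time in Fezf2GFP 0 of 10 passed, where 12.1% of all genes tested did.

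**Figure D4:**
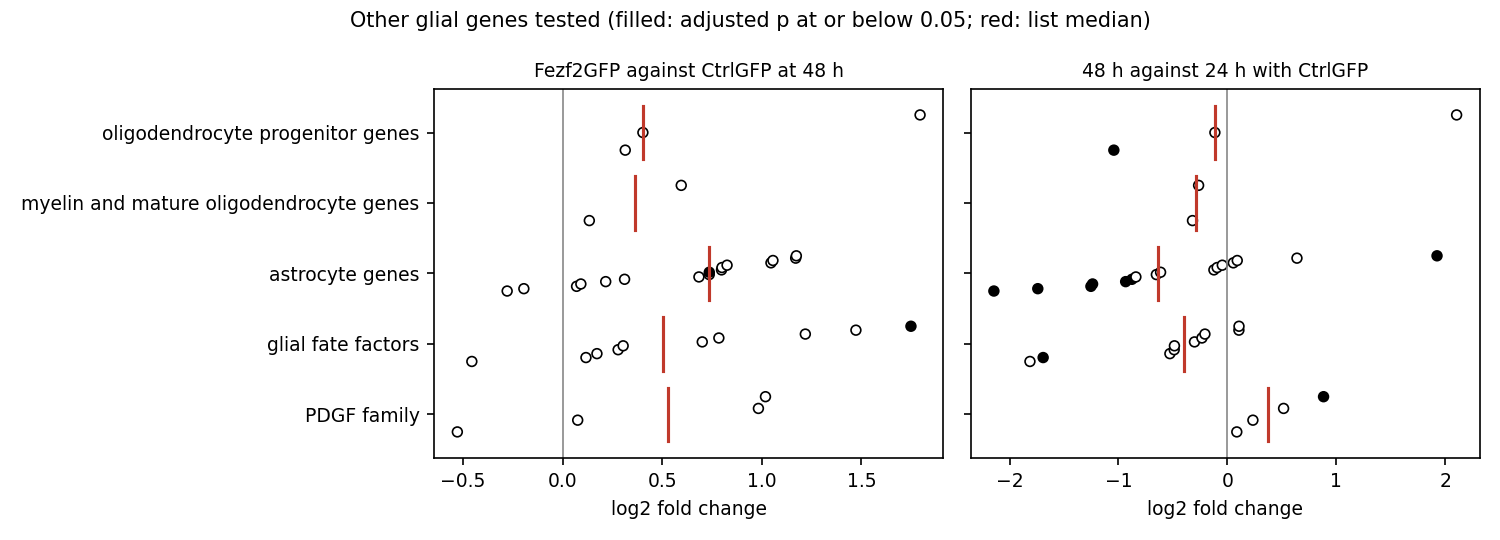
Log2 fold change (horizontal axis) of the other glial genes tested, 1 point per gene, for Fezf2GFP against CtrlGFP at 48 h (left) and 48 h against 24 h in controls (right); filled points passed and red lines are list medians. Astrocyte genes have a median of 0.74 on the left and -0.63 on the right.

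Marker lists of other cell types were read on the same arrays. In these pooled cells, fewer cells of a type and less RNA per cell cannot be told apart. Radial glia markers had summed log2 levels of 16.29 to 16.45 in CtrlGFP at 24 h and 15.64 to 16.15 at 48 h, and neuron markers 15.82 to 16.20 and 16.37 to 16.69, in the comparison where Olig1 and Olig2 rose. There 2 of 8 radial glia markers fell and 3 of 8 neuron markers rose, where 6.69% of all genes fell and 5.88% rose. The radial glia markers that fell were Nes and Slc1a3 (named after their values were seen). Slc1a3 is also on the list of astrocyte genes, so its fall is counted in both lists. For Fezf2GFP at 48 h the sums were 15.82 to 16.45 for radial glia and 16.51 to 16.73 for neurons, and against CtrlGFP 1 of 8 radial glia markers rose and 1 fell while 0 of 8 neuron markers passed, where 3.13% of all genes passed. GABAergic and subpallial markers, which belong to a lineage that uses Olig2, summed to 7.12 to 7.39 in CtrlGFP at 24 h, 7.70 to 10.43 in CtrlGFP at 48 h and 9.26 to 10.30 in Fezf2GFP at 48 h. Of these 9 genes, Dlx6, Gsx2 and Nkx2-1 were dim on all arrays and 6 were tested. Of the 6, 0 passed in any of the 5 comparisons, where 0.0971% to 12.6% of all genes tested passed. In Fezf2GFP at 24 h the sum was 10.65 in replicate 1, the array with the high Olig1, Olig2 and Aqp4, against 7.02 and 8.87 in replicates 2 and 3. At 48 h the arrays were mixed. CtrlGFP replicate 1, with the highest Olig1 of its group (9.50), also had the highest sum (10.43). CtrlGFP replicate 4, with Olig1 at 8.88, had the lowest sum of that group (7.70). Fezf2GFP replicate 3, with Olig1 at 6.10, had the highest sum of its group (10.30). The part of these cells in the results was not tested.

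Mural and meningeal cells can also carry Pdgfra. Of their 10 markers 7 were dim on all arrays, including Col1a1, Col1a2, Dcn and Lum, and the sums were 7.66 to 9.11, 7.48 to 10.26, 8.07 to 9.49 and 8.95 to 10.18 in CtrlGFP and Fezf2GFP at 24 h and CtrlGFP and Fezf2GFP at 48 h. Of 10 microglia markers 9 were dim on all arrays, with sums between 6.27 and 7.01. Of 8 endothelial markers 5 were dim on all arrays, including Pecam1, Cdh5 and Kdr, and the sums were 8.77 to 10.05 in CtrlGFP and 6.34 to 8.34 in Fezf2GFP at 24 h, and 9.36 to 10.74 and 8.24 to 9.67 at 48 h. The sums were lower in Fezf2GFP at both times, without overlap at 24 h. Of the 3 tested, Slco1c1, a transporter of brain endothelium, had the highest level and so the most weight in the sums. It stood at -2.98 at 24 h (limma adjusted p = 0.0921) and -1.60 at 48 h (adjusted p = 0.248). The other 2 went the other way and did not pass: Cldn5 stood at 0.19 and 1.00, and Esam at 0.07 and 0.18. All 3 were named after their values were seen. The part of these cells in the results was not tested. The neural crest and Schwann cell markers, which would accompany Sox10 outside the brain, were dim on all arrays for 3 of 3 read here.

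Among the 5 tested members, Olig1 went with Olig2 and Mbp with Aldh1l1 in their pattern over the 14 arrays. Olig1 and Olig2 correlated with each other at 0.863 (Pearson's r over 14 arrays, which share groups and so give no test), and Mbp and Aldh1l1 at 0.817. Aqp4 correlated with Aldh1l1 at 0.617 and with Mbp at 0.580. Only 4 of 14 arrays exceeded the dim level for Aqp4, and values below it have no order, so these values place Aqp4 with neither pair. Between Olig1 or Olig2 and the remaining members r lay between -0.203 and 0.294. Across the other tested genes, those most like Olig1 were Rufy3 (r = 0.936), Gpr85 (0.934) and Cd200 (0.927), and those most like Olig2 were Camk2n2 (0.917), Pdzrn4 (0.905) and Cd200 (0.896). Those most like Aldh1l1 were Fam234b (0.975), Spint2 (0.961) and Tekt1 (0.957). Mbp was followed most closely by Cntnap2 (0.939), Penk (0.925) and Ctnnd2 (0.908), and Aqp4 by Cdc42ep1 (0.925), C1ql3 (0.901) and Vat1l (0.887). Some of these genes had group means below the dim level, such as Tekt1 (3.42 in CtrlGFP at 24 h) and C1ql3 (3.33 there).

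Within each gene the order of the group means was read with its spread. For Olig1 and Olig2 the order from high to low was CtrlGFP 48 h (8.20 ± 1.44 and 6.52 ± 0.58), Fezf2GFP 48 h (6.74 ± 0.59 and 5.13 ± 0.22), Fezf2GFP 24 h (4.51 ± 1.37 and 4.71 ± 1.05) and CtrlGFP 24 h (3.66 ± 0.085 and 4.60 ± 0.43; SD, n = 4 at 48 h and 3 at 24 h). None of the neighbouring differences that the design tests (between vectors at 48 h, over time in Fezf2GFP, between vectors at 24 h) passed for either gene. For Aldh1l1 the order was Fezf2GFP 48 h (9.89 ± 0.13), Fezf2GFP 24 h (8.51 ± 0.50), CtrlGFP 48 h (8.49 ± 0.38) and CtrlGFP 24 h (8.24 ± 0.25), and the first step passed. Mbp had the same order, at 7.70 ± 0.22, 7.01 ± 0.16, 6.69 ± 0.41 and 6.57 ± 0.32, and its first step did not pass.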

How the data were processed

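RNA of sorted cells was amplified by linear in vitro transcription and hybridised to Affymetrix arrays, per the labels' protocols. The authors deposited 1 log2 value per probe set and array. GCRMA is the tool named, per the submitters' processing notes, without a version or settings. Background correction, normalization and the summary over probes are therefore those of the authors.

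Of 45037 probe sets, 34945 were paired with 1 symbol, 932 with several and 9160 with none. The probe set with the highest mean was taken for each of 18193 symbols, and 10295 genes above the dim level of 4 on at least 3 of 14 arrays were tested. With limma 3.58.1 (lmFit, eBayes; R 4.3.3) each gene got 4 group means over the 14 arrays, with 10 residual degrees of freedom. Adjusted p-values are Benjamini-Hochberg values over all genes tested, "passed" means 0.05 or below, SE is limma's, and "fell by" gives a log2 difference. Summed levels are log2 of the summed linear values of a list. The same fit was run on 17407 probe sets. The number of arrays and signal over background limit the precision. The function was tested on simulated data.

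All 9 members were named with every probe set. From each related list up to 3 passing genes were named by adjusted p, or the 2 of highest mean where none passed, and for each tested member the 3 most correlated genes. The members and lists were chosen with earlier results of these data known. Replicate numbers did not pair the arrays: correlations of deviations between same-numbered arrays ranged from -0.399 to 0.318. Alternatives were other dim filters, quantile normalization, median centring, a replicate block, only the groups compared, array weights, other probe set choices, a mean-variance trend and leaving out arrays.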

Additional observations from a re-analysis of the deposited data

Results flagged for a closer look

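At 48 h the Mbp probe set that passed read 6.08 in CtrlGFP replicate 4, far below the other 3 control arrays (6.84 to 6.98). Without this array the log2 fold change of Mbp for Fezf2GFP at 48 h was 0.81 (limma adjusted p = 0.0480). The Pdgfra probe set of highest mean read 4.39 in CtrlGFP 48 h replicate 2, far above the other 3 arrays of its group (3.62 to 3.66). This array has the second highest median of the 14, 3.45. About 1 in 20 groups of 4 would be picked out in this way by chance if values spread normally, which was not tested. The other 3 Pdgfra values lie below the dim level, where this rate may not hold.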

How the results depend on the processing

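Each result was recomputed under up to 25 alternatives. The count of members that passed stayed at 0 for Fezf2GFP at 24 h and at 2 (Olig1 and Olig2) for controls over time. For Fezf2GFP at 48 h it was 1 with a replicate block, with only the groups compared and with the probe set of highest variance (Mbp lost, at 0.56 there), and 1 to 3 with an array left out. For the interaction it was 1 with array weights (Aldh1l1, adjusted p = 0.0378). For Fezf2GFP over time it was 2 with a replicate block, 2 with only the groups compared, 3 with array weights, 2 without CtrlGFP 24 h replicate 1 and CtrlGFP 48 h replicate 2 together, and 1 to 2 with an array left out; Olig1, Mbp or both were added. The replicate block gave Mbp at 48 h an adjusted p of 0.0513 and Olig1 over time in Fezf2GFP one of 0.0473. The fit of array weights did not reach its tolerance.

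Signs changed for differences that did not pass; ranges are over fits that each left out 1 array. Olig2 at 24 h stood at -0.029 with array weights and from -0.43 to 0.62, and over time in Fezf2GFP from -0.086 to 0.96. Mbp over time in controls stood at -0.19 with array weights, -0.14 without both control arrays named above, and from -0.044 to 0.33. Aqp4 over time in controls stood at -0.13 with the replicate block, -0.0066 without both arrays, and from -0.082 to 0.16. Its interaction stood at 0.52 with array weights and from -0.94 to 0.43, and its change over time in Fezf2GFP at 0.53 with array weights and from -0.85 to 0.52. The cause was not tested.

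Over all genes, 109 passed at 24 h (50 to 2030 over the alternatives), 322 at 48 h (168 to 550), 10 for the interaction (0 to 240), 1294 over time in controls (797 to 3077) and 1241 in Fezf2GFP (630 to 3133), with the highest counts from array weights. For probe sets below the dim level, background limits any statement.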
